A study of Homo sapiens with 11 samples.

Results

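The clustered histone genes are the genes of the HIST1, HIST2, HIST3 and HIST4 clusters, which encode the linker histone H1 and the core histones H2A, H2B, H3 and H4. They were taken by symbol from a table of read counts of poly(A)-selected RNA, and 36 of its 19990 genes met the rule. The samples were cardiomyocytes derived from the established human iPSC line WTC11 (induced pluripotent stem cells) at passage 63. One differentiation was steered by activating and then inhibiting Wnt signalling (CHIR99021, then IWP2), and its parallel wells were kept in RPMI1640 with B27 including insulin until Day 30 (4 wells), Day 60 (3 wells) or Day 113 (4 wells). All 3 groups therefore share the line, the passage, both small molecules and the medium, and they differ in time in culture. Wells of 1 differentiation are the replicates, so the spread between them covers neither another differentiation nor another line, and day and collection cannot be told apart.

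Most messages of clustered histone genes are made while DNA is replicated, in S phase, and they end in a conserved stem-loop instead of a poly(A) tail. The stem-loop binding protein SLBP and the U7 ribonucleoprotein direct that cut. Some of these genes also give longer, polyadenylated messages that read past the stem-loop, and such forms have been described in differentiated cells. Poly(A) selection keeps the polyadenylated forms and loses most stem-loop-ended ones, so the counts here measure the first kind mainly, and the total output of the clusters was not measured. In bulk RNA, fewer cells of a type and less RNA per cell cannot be told apart.

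The stem-loops are shown because they mark where the unpolyadenylated message would end. In the GENCODE v29 transcripts (GRCh38, the hg38 build), the 16-base histone stem-loop motif on the sense strand was found in 24 of the 36 genes, against 48 of all 57133 gene names (0.084%). Capitals mark the 2 arms of the stem, and 5 bases are printed on each side.

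HIST2H2BE: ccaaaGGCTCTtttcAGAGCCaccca
HIST1H2AC: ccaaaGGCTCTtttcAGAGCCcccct
HIST3H2A: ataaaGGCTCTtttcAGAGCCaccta
HIST1H2BD: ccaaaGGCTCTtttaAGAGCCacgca
HIST1H2AG: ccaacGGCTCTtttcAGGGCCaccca
HIST1H3E: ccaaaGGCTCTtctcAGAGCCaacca
HIST4H4: caaaaGGCCCTtttcAGGGCCcccaa

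The core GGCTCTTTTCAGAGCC of HIST2H2BE, HIST1H2AC and HIST3H2A was shared by 12 of the 24 genes. The loop base that sets HIST1H2BD apart was shared by 5 genes in all, and HIST4H4 shared its core with 2 other H4 genes. The annotated HIST2H2BE transcript went on for 1729 bases after its stem-loop, that of HIST1H2AC for 1128 bases and that of HIST3H2A for 390 bases. A poly(A) signal, AATAAA or ATTAAA in the last 40 bases of at least 1 transcript on the sense strand, was found in 16 of the 36 genes. Of these, 15 also had the stem-loop motif, though not always in the same transcript. For HIST1H2BC and HIST1H2BN, the transcript reaching furthest past the stem-loop had no such signal. Over all gene names, 45.3% had such a signal. A gene with neither motif has a model without these letters, and several such models stop at the end of the coding sequence.

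The summed level of the 36 genes was highest on Day 30 and lowest on Day 113 in these libraries. They held 0.0388%, 0.0370%, 0.0371% and 0.0408% of the counts of the 4 Day 30 wells. On Day 60 the 3 wells held 0.0337%, 0.0313% and 0.0296%. On Day 113 the 4 wells held 0.0154%, 0.0155%, 0.0136% and 0.0149%. No value of one day overlapped another day's range. In CPM, counts per 1000000 counts of a library scaled by TMM, the sum was 386.5 ± 22.2 on Day 30 (SD, n = 4), 317.7 ± 27.3 on Day 60 (n = 3) and 146.8 ± 10.7 on Day 113 (n = 4). The Day 113 mean was 0.38 times the Day 30 mean, and 0.462 times the Day 60 mean. No test was made of this sum. Library totals ran from 24.1 to 34.5 M counts, so the sum rested on 3582 to 12059 counts per well, and 3 counts, the most that a count of 0 allows, came to 0.0856 to 0.12 CPM.

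**Figure D1:**
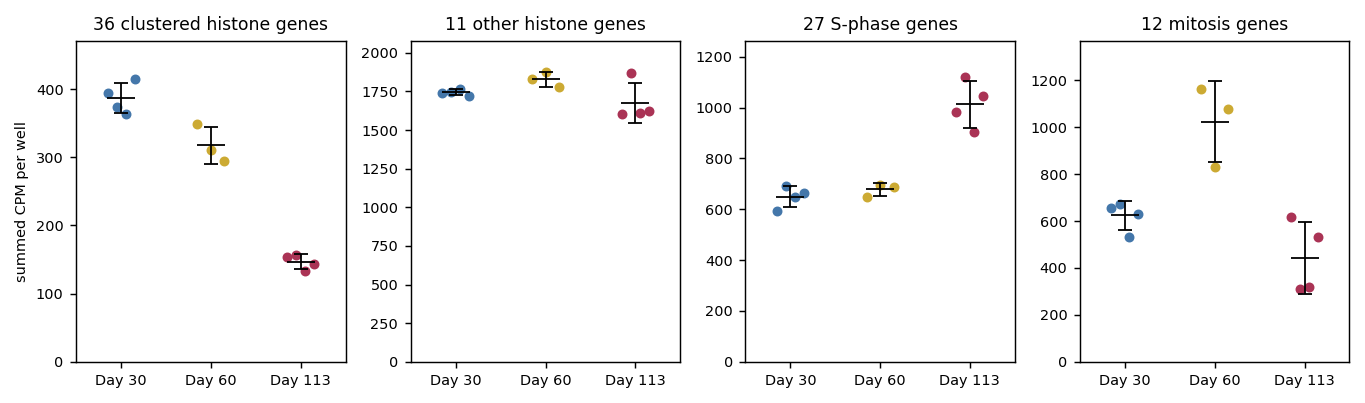
Summed CPM per well (y axis, from 0) by day for the 36 clustered histone genes, 11 other histone genes, 27 S-phase genes and 12 mitosis genes. Points are wells, horizontal bars the mean and whiskers the SD. The clustered histone sum is lowest on Day 113 (133 to 157 CPM), where the S-phase sum is highest (905 to 1120 CPM).

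Gene by gene, 3 of the 36 were lower on Day 60 than on Day 30 at an adjusted p under 0.05 and none was higher. Of all genes tested, 10.3% passed in that comparison, 5.91% lower and 4.39% higher. Between Day 60 and Day 113, 13 were lower and none higher (36.1% of the members), where 24.0% of all genes passed, 11.1% lower and 12.9% higher. Between Day 30 and Day 113, 15 were lower and none higher (41.7% of the members), where 34.5% of all genes passed, 17.2% lower and 17.3% higher. The median log2 fold change of the 36 genes was -0.24, -1.30 and -1.47 in the 3 comparisons, against -0.01, 0.00 and -0.02 for all genes. Wells of the 2 days did not overlap, with Day 113 lower, for 21 members against Day 30 (18.0% of all genes) and for 16 against Day 60 (14.4% of all genes). On Day 60, 5 members lay wholly below Day 30 (14.1% of all genes) and 2, HIST1H2BH and HIST1H2AM, wholly above it (10.7% of all genes). A test of the difference between the 2 intervals called 5 members, each with the more negative change after Day 60, where 9.34% of all genes passed, 4.38% in that direction and 4.97% in the other. The test of the intervals compared whole changes, not changes per day, and the interval from Day 60 to Day 113 was the longer one. The comparisons share wells, so their counts are not independent of each other. The Day 60 against Day 30 count was 1 without Day 60 replicate 2, and also 1 without Day 60 replicate 3. The count for the difference between the intervals fell from 5 to 1 without Day 60 replicate 1.

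**Figure D2:**
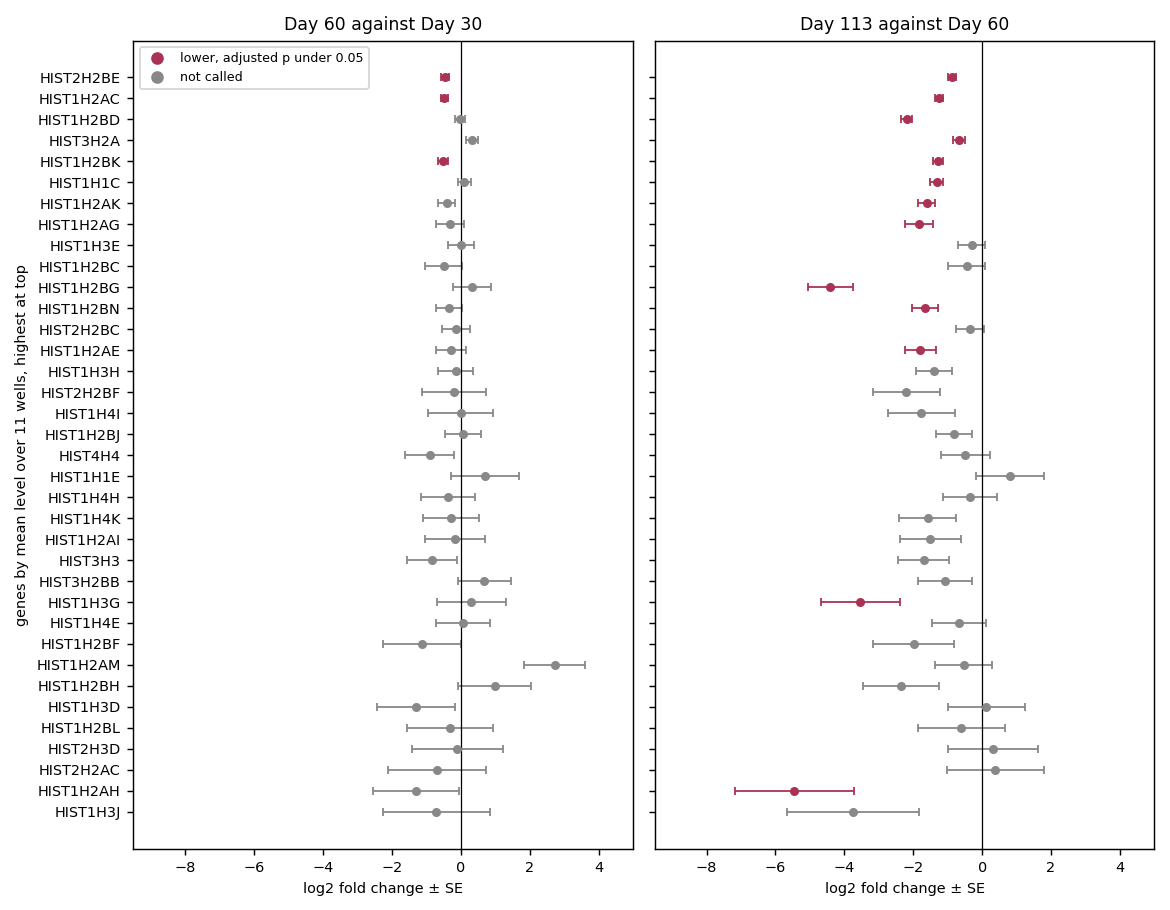
Log2 fold change with its standard error (x axis) of each of the 36 genes (y axis, ordered by mean level), Day 60 against Day 30 on the left and Day 113 against Day 60 on the right. Red points passed an adjusted p of 0.05 and grey points did not; 3 genes passed on the left and 13 on the right, all lower.

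A few genes made up most of the signal. The 6 most abundant held 88.4% of the clustered histone counts on Day 30, 87.5% on Day 60 and 88.0% on Day 113. HIST2H2BE alone held 45.5%, 40.3% and 47.6%. Of the 36 genes, 18 averaged at least 1 CPM and 15 had a count of 0 in at least 1 library. By class, the 13 H2B genes held 68.3% of the histone counts on Day 30 and the 9 H2A genes 21.9%, whereas the 2 H1 genes held 6.34%, the 7 H3 genes 2.05% and the 5 H4 genes 1.42%. On Day 113 the order was the same, with H2B at 63.8%, H2A at 24.1%, H1 at 8.03%, H3 at 2.58% and H4 at 1.52%.

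H2B and H2A form the dimers that flank the central H3 and H4 tetramer of the nucleosome. HIST2H2BE (H2BC21, an H2B gene) lies on chromosome 1 at 149884459 to 149886652, minus strand. It stood at 184, 174, 159 and 187 CPM on Day 30, at 147, 127 and 112 CPM on Day 60, and at 73.7, 76.6, 63.7 and 65.3 CPM on Day 113. Each day's wells lay wholly below the day before. From Day 30 to Day 60 its log2 fold change was -0.45 with an SE of 0.11 and an adjusted p of 0.015. From Day 60 to Day 113 it was -0.88 with an SE of 0.11 (adjusted p = 5.2e-05). The first of these calls was lost without Day 60 replicate 2 (adjusted p = 0.0527) and without Day 60 replicate 3 (adjusted p = 0.117). From Day 30 to Day 113 it fell by 1.33 on the log2 scale.

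HIST1H2AC (H2AC6, an H2A gene on chromosome 6 at 26124145 to 26139116, plus strand) had the second highest level. Its Day 30 wells stood at 48.2, 48.1, 46.4 and 52.9 CPM, its Day 60 wells at 38.1, 34.2 and 33.2 CPM, and its Day 113 wells at 15.4, 14.5, 15.9 and 13.4 CPM. It too fell in both intervals, by 0.47 (adjusted p = 0.011) and then by 1.25 (adjusted p = 3.9e-06) on the log2 scale. Without Day 60 replicate 3 the first call was lost (adjusted p = 0.0648). The second interval's change was the larger one, with a difference of -0.77 (SE 0.19, adjusted p = 0.019), a call lost without Day 60 replicate 1 (adjusted p = 0.108).

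HIST1H2BD (H2BC5, an H2B gene on chromosome 6 at 26158146 to 26171349, plus strand) fell in the second interval. It stood at 45.6, 39.0, 36.8 and 44.5 CPM on Day 30 and at 47.6, 39.4 and 35.8 CPM on Day 60, and these ranges overlapped. On Day 113 its wells stood at 11.1, 7.24, 7.42 and 10.0 CPM, below every earlier well. Up to Day 60 its log2 fold change was -0.02 with an SE of 0.16 and an adjusted p of 0.97. After Day 60 it was -2.19, with the same SE (adjusted p = 7.7e-07). The difference between the intervals was -2.17 (SE 0.27, adjusted p = 0.00039).

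HIST1H2BK (H2BC12, an H2B gene on chromosome 6 at 27146418 to 27146798, minus strand) stood at 29.8, 29.1, 33.7 and 29.8 CPM on Day 30. It stood at 19.7, 19.7 and 25.1 CPM on Day 60, and at 10.1, 8.81, 7.90 and 8.75 CPM on Day 113. The 3 days did not overlap. Its fall of 0.51 in the first interval (adjusted p = 0.026) was lost when any of 5 wells was left out: Day 30 replicate 1, 2 or 3, or Day 60 replicate 1 or 2, with adjusted p from 0.0540 to 0.139. Its fall of 1.28 in the second interval (adjusted p = 1.9e-05) passed under each alternative run.

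HIST3H2A (H2AC25, an H2A gene on chromosome 1 at 228456979 to 228457873, minus strand) was the exception among the 5 most abundant genes. It stood at 20.3, 17.1, 24 and 20.5 CPM on Day 30, at 23.4, 22.8 and 31.4 CPM on Day 60 and at 12.6, 19.0, 14.4 and 19.1 CPM on Day 113. Day 30 and Day 113 overlapped, and their log2 difference of -0.33 (SE 0.16) had an adjusted p of 0.13. The log2 fold change from Day 60 to Day 113 was -0.67 with an SE of 0.18 (adjusted p = 0.011), which did not pass once Day 60 replicate 3 was left out (adjusted p = 0.0709).

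**Figure D3:**
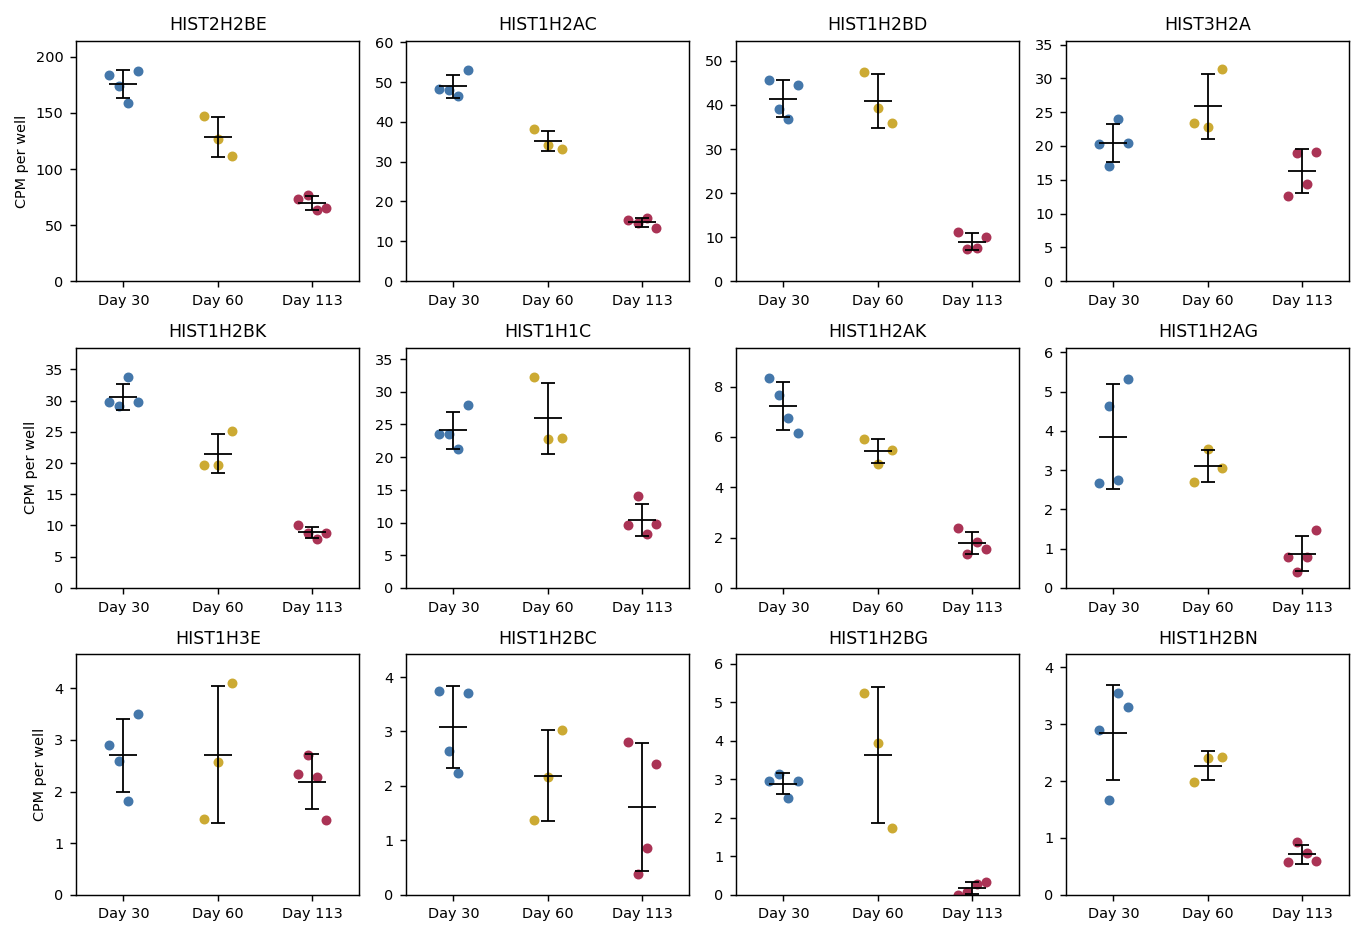
CPM per well (y axis, from 0, a scale of its own in each panel) by day for the 12 clustered histone genes with the highest mean level. Points are wells, horizontal bars the mean and whiskers the SD; HIST2H2BE runs from 63.7 to 187 CPM, and HIST1H3E and HIST1H2BC overlap between days.

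Among the less abundant H2A and H2B genes the direction was mostly downward, with wider errors. HIST1H2BG (H2BC8, H2B) stood at 2.5 to 3.14 CPM on Day 30, at 5.23, 3.94 and 1.73 CPM on Day 60, and at 0, 0.075, 0.285 and 0.321 CPM on Day 113. Its log2 fold change from Day 60 to Day 113 was -4.41 (SE 0.66, adjusted p = 0.00025), the lowest of the 12 most abundant members. HIST1H2AG (H2AC11, H2A) fell by 1.84 (adjusted p = 0.0046) and HIST1H2AE (H2AC8, H2A) by 1.79 (adjusted p = 0.0076) in the same interval. HIST1H2AK (H2AC15, H2A) went from 6.15 to 8.33 CPM on Day 30 to 1.35 to 2.37 CPM on Day 113, a fall of 2.01 (adjusted p = 1.1e-05). HIST1H2BN (H2BC15, H2B) fell by 1.99 between the same days (adjusted p = 0.00057), but its annotated exons overlap those of HIST1H2AK, so their counts are uncertain. HIST1H2BC (H2BC4, H2B) did not pass: it stood at 2.24 to 3.74 CPM on Day 30 and at 2.80, 0.375, 0.856 and 2.41 CPM on Day 113 (adjusted p = 0.17).

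Some genes that passed rested on few counts. HIST1H2AH (H2AC12, H2A), named after its values were seen, had 0.344, 0.5, 0.494 and 0.447 CPM on Day 30 and no count in the 4 Day 113 wells. Against a floor of 3 counts per library it was at least 4.41-fold lower on Day 113 than on Day 30 (adjusted p = 0.0075). Its Day 60 wells stood at 0.319, 0.221 and 0 CPM and overlapped Day 113, though the difference passed (adjusted p = 0.037). The Day 60 mean of 0.18 CPM was 1.78 times the Day 113 floor of 0.101 CPM. With no count in Day 60 replicate 3 either, this ratio is not a lower bound. The Day 60 call was lost in limma-voom (adjusted p = 0.205) and without any 1 of 10 wells, Day 60 replicate 3 being the exception. HIST1H2BF (H2BC7, H2B) stood at 0.535 to 1.27 CPM on Day 30 and at 0 to 0.231 CPM on Day 113 (log2 fold change -3.10, SE 1.14, adjusted p = 0.045). That call was lost without any 1 of 8 wells: each Day 30 well, Day 60 replicate 2 and Day 113 replicates 2, 3 and 4, with adjusted p up to 0.105.

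The linker histone H1 binds the DNA entering and leaving the nucleosome. HIST1H1C (H1-2, chromosome 6 at 26055787 to 26056428, minus strand) stood at 23.5, 23.6, 21.3 and 27.9 CPM on Day 30 and at 32.2, 22.7 and 22.9 CPM on Day 60. On Day 113 it stood at 9.67, 14.0, 8.30 and 9.75 CPM, below all earlier wells. The fall of 1.32 from Day 60 (SE 0.18) had an adjusted p of 0.00013. HIST1H1E (H1-4), the other H1 gene among the members, stood at 0.206 to 1.02 CPM on Day 30 and at 1.79, 2.25, 0.285 and 1.44 CPM on Day 113. These ranges overlapped, and its log2 difference of 1.52 (SE 0.93) did not pass (adjusted p = 0.23).

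H3 and H4 messages were scarce in this poly(A)-selected RNA. HIST1H3E (H3C6), the highest of them, stood at 1.81 to 3.50 CPM on Day 30, at 1.47 to 4.10 CPM on Day 60 and at 1.44 to 2.70 CPM on Day 113 (Day 113 against Day 30 -0.30, SE 0.36, adjusted p = 0.57). In this class 3 others passed from Day 30 to Day 113. HIST3H3 (H3-4) went from 0.801 to 1.45 CPM to 0.0401 to 0.404 CPM (log2 -2.53, adjusted p = 0.012). HIST1H3H (H3C10), named after its values were seen, fell by 1.55 (adjusted p = 0.021), a call lost without Day 30 replicate 3 (adjusted p = 0.05), Day 30 replicate 4 (0.071) or Day 113 replicate 3 (0.0577). HIST1H3G (H3C8) had no count in 3 of the 4 Day 113 wells and 0.361 CPM in replicate 4, and its call (adjusted p = 0.032) was lost without any 1 of 6 wells. None of the 5 H4 genes passed in any pair of days, each having a mean under 2 CPM on every day.

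The highest log2 fold changes against Day 30 among the members were those of HIST1H2AM (H2AC17, H2A), also named after its values were seen. It stood at 0.0382 to 0.133 CPM on Day 30, at 0.479, 0.332 and 1.29 CPM on Day 60 and at 0.225 to 0.642 CPM on Day 113. Day 30 lay below both later days, but neither difference passed (adjusted p = 0.061 and 0.055); both passed in DESeq2 (0.0192 and 0.0267) and without Day 113 replicate 2 (0.0479 and 0.0398). Only 16.0% of its transcript's 100-base stretches are unique to it, and its exons overlap those of HIST1H3J, so reads may be shared. HIST1H2BH (H2BC9, H2B), named after its values were seen, stood at 0.153 to 0.534 CPM on Day 30, at 0.606, 0.737 and 0.946 CPM on Day 60 and at 0 to 0.361 CPM on Day 113. Its Day 60 wells lay above both other days, but the difference from Day 30 did not pass (log2 0.99, SE 1.06, adjusted p = 0.66). Of the 36 genes, 6 had fewer than 50% unique stretches, the top 12 by level being outside that group.

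Neighbouring H2A and H2B genes often point away from each other across one short promoter. Among the members 7 such pairs were found, with 219 to 331 bases between the annotated starts. Levels within a pair were compared per kilobase of annotated exon, as mean CPM over the 11 wells. HIST2H2BE stood at 56.7 CPM per kb and its partner HIST2H2AC at 0.564, a ratio of 101. HIST2H2AC had 70 counts over the 11 wells and HIST1H2AH, in the next pair, 68, so both ratios rest on few counts. HIST1H2BK stood at 53.1 and HIST1H2AH at 0.546, a ratio of 97.2, but the HIST1H2BK model is 381 bases long whereas RefSeq gives the gene a span of 8566 bases, so this level may be too high. HIST3H2A stood at 22.8 and HIST3H2BB at 0.287, a ratio of 79.4, and HIST1H2AC stood 7.11 times above HIST1H2BC. The other 3 pairs differed by 1.07 to 2.62 times. Some models were longer than the RefSeq span: HIST3H2BB (2364 against 456 bases), HIST1H2BG (1534 against 489) and HIST1H2AG (2250 against 493). The ratios therefore depend on the annotation, and in a close pair the higher gene may change with it. In 2 of the 7 pairs, those of HIST2H2BE and HIST3H2A, the higher gene had a model with a poly(A) signal and the lower had none. Both genes had one in 2 pairs, that of HIST1H2AC and that of HIST1H2BJ and HIST1H2AG. Neither had one in the other 3, the pair of HIST1H2BK included. The HIST1H2BK, HIST1H2AH and HIST2H2AC models, 381, 387 and 390 bases long, hold no stem-loop either, so a signal past their ends would be missed. Whether the signal goes with the level was not tested.

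**Figure D4:**
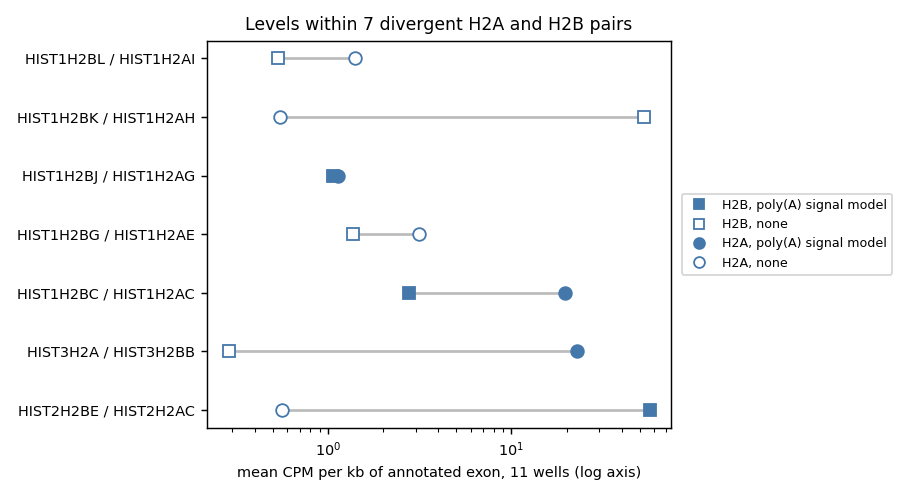
Mean CPM per kb of annotated exon over 11 wells (x axis, log scale) for the 2 genes of 7 divergent pairs (y axis). Squares are H2B genes and circles H2A genes, filled where a transcript model ends with a poly(A) signal. The pairs of HIST2H2BE, HIST1H2BK and HIST3H2A are 79.4 to 101 times apart, with HIST2H2AC and HIST1H2AH resting on 70 and 68 counts in all.

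The promoter between HIST2H2BE and HIST2H2AC is printed as 1 example of a sequence shared by genes of unequal level. It runs from 250 bases before to 50 bases after the HIST2H2BE start (RefSeq, GRCh38.p14, chr1:149886633-149886932, minus strand), with the octamer ATTTGCAT, the binding motif of OCT1, in capitals.

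HIST2H2BE: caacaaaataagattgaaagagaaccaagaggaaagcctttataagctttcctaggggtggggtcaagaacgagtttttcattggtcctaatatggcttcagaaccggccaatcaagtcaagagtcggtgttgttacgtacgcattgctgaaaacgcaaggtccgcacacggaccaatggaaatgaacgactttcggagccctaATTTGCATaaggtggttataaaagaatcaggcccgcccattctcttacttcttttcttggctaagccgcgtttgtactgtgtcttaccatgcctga

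The same 8 bases, at 149886721 to 149886728, also lie in the HIST2H2AC window on the other strand. Of the 33 members with a RefSeq promoter, 14 held ATTTGCAT on either strand (42.4%), against 1.8% of 27305 promoters of that length. They were 8 of 12 H2B promoters, 5 of 8 H2A promoters, 1 of 6 H3 promoters and none of the 5 H4 or 2 H1 promoters. The H3 gene was HIST1H3D, whose octamer at 26199405 to 26199412 also lies in the HIST1H2BF window. Its RefSeq window lies apart from its GENCODE model, which spans 26196840 to 26197250. CCAAT was in 87.9% of the members' promoters (35.7% of all) and TATAAA in 60.6% (12% of all). HIST1H2BD, which fell after Day 60, held CCAAT and TATAAA but not the octamer. The divergent pairs share bases, as do HIST1H3D and HIST1H2BF, and HIST1H2AK and HIST1H2BN, so their promoters are not independent of each other.

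Genes of histone message 3′-end formation and transcription changed in both directions. Of the 16 measured, 5 were higher and 2 lower on Day 113 than on Day 30, where 17.3% of all genes were higher and 17.2% lower. SLBP, which binds the stem-loop, stood at 37.2 ± 5.6 CPM on Day 30 (SD, n = 4), 29.2 ± 5.4 on Day 60 (n = 3) and 37.5 ± 3.3 on Day 113 (n = 4), and Day 113 against Day 30 did not pass (log2 0.01, SE 0.13, adjusted p = 0.96). LSM11, a protein of the U7 particle, fell by 0.49 (adjusted p = 0.0045), and its partner LSM10 rose by 0.48 (adjusted p = 0.007). SRRT (ARS2) rose by 0.66 (adjusted p = 0.00012) and CASP8AP2 (FLASH) by 0.50 (adjusted p = 0.0037). NPAT, the transcriptional co-activator of histone genes, did not pass (log2 0.24, adjusted p = 0.28), but without Day 113 replicate 2 it did (log2 0.40, adjusted p = 0.0213).

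Genes of DNA replication and of mitosis went different ways over the second interval. Of 27 S-phase genes, 19 were higher and 1 lower on Day 113 than on Day 60, and 22 were higher and 2 lower than on Day 30. Over all genes, 12.9% were higher and 11.1% lower against Day 60, and 17.3% and 17.2% against Day 30. PCNA, the replication clamp, stood at 17.9, 24.3, 19.7 and 17.3 CPM on Day 30 and at 38.7, 60.2, 39.4 and 50.7 CPM on Day 113, without overlap (log2 1.25, adjusted p = 1.3e-05). E2F1 rose by 1.65 (adjusted p = 6.9e-06) and the helicase subunit MCM5 by 0.94 (adjusted p = 3.9e-05) between the same days. All 12 mitosis genes were lower on Day 113 than on Day 60, and 6 of 12 lower than on Day 30. Before that, 3 of them had been higher on Day 60 than on Day 30, as were 4.39% of all genes. PLK1, a mitotic kinase, fell by 1.77 from Day 60 to Day 113 (adjusted p = 7.7e-05), and CCNA2, the S-phase gene that was lower, fell by 1.43 (adjusted p = 0.00013).

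The histone genes outside the clusters, most of which give polyadenylated messages, had a higher summed level: a median of 1740 CPM on Day 30, 1830 on Day 60 and 1620 on Day 113. The list holds 23 symbols, older and newer ones of the same genes, and 11 were found. Of these, 2 were higher and 3 lower on Day 113 than on Day 30, near the shares over all genes (17.3% and 17.2%). H2AFV and H2AFZ, which encode H2A.Z, rose by 0.64 (adjusted p = 3.3e-05) and 0.51 (adjusted p = 0.0021). CENPA, the centromeric H3, was lower by a log2 difference of -0.93 (adjusted p = 0.033), a call lost without any 1 of 5 wells. H3F3A, which encodes H3.3, did not pass (log2 0.04, SE 0.09, adjusted p = 0.78), and neither did H3F3B (0.15, adjusted p = 0.34) or H1FX (-0.21, adjusted p = 0.24). Without Day 113 replicate 2, H1FX passed as lower (-0.36, adjusted p = 0.0138). Of 19 chaperone genes, 8 were higher and 4 lower; HAT1, which acetylates new H4, rose by 0.75 (adjusted p = 0.00018), and HIRA, the chaperone of H3.3, fell by 0.61 (adjusted p = 0.0005).

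Markers of several cell types changed between the days. Over all genes, 17.3% were higher and 17.2% lower on Day 113 than on Day 30, and 12.9% and 11.1% against Day 60. From Day 30 to Day 60, 4.39% of all genes were higher and 5.91% lower. The 8 cardiomyocyte markers summed to 26500 to 37200 CPM on Day 30, 31100 to 36600 on Day 60 and 27100 to 28800 on Day 113. From Day 30 to Day 113, 2 of them were higher (TNNT2 by a log2 of 0.66, TNNI1 by 0.40) and 2 lower (MYH7 with -0.73, ACTN2 with -0.64), and MYH7 alone averaged 15412 and 9277 CPM on these days. The 8 endothelial markers summed to 56.2 to 84.6, 41.1 to 66.6 and 198 to 802 CPM, and all 8 were higher on Day 113 than on either earlier day. The 8 fibroblast markers summed to 3350 to 7710, 2070 to 3570 and 5430 to 13000 CPM, sums carried by the collagen genes. From Day 30 to Day 113, 4 of them were higher (COL1A1, POSTN, DCN and TCF21, log2 0.87 to 2.95) and 2 lower (PDGFRA with -2.15, LUM with -1.27). Of 5 smooth muscle markers 4 were measured, with sums of 634 to 904, 680 to 846 and 865 to 1290 CPM, and 2 were higher on Day 113 than on Day 30. All 6 endoderm markers were lower on Day 60 than on Day 30, their sum going from 428 to 1260 CPM to 46.7 to 52.3 CPM, with FOXA2 at 0 in 2 of 3 Day 60 wells. On Day 113 the sum was 11.9 to 39.8 CPM, and 2 of the 6 (AFP and APOA1) were lower than on Day 60, while FOXA2 and TTR had log2 fold changes above 0 that did not pass. Of 4 pluripotency markers 2 were measured, and LIN28A was at 0 in all Day 113 wells; of 3 immune markers CD68 was measured, at 0.766 to 2.96 CPM. The part of these cells in the histone result was not tested.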

How the data were processed

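Per the submitters' processing notes, hg38, STAR 2.5.3a and featureCounts 2.0.3 were used; the annotation, strand setting and any gene filter are not given in the sources used here. The authors deposited unnormalized counts of 19990 genes in 11 libraries, each gene with at least 35 counts in all, and a table of TPM values. The TPM values that the authors deposited entered no test. The main test was edgeR's quasi-likelihood F-test (edgeR 4.0.16, R 4.3.3, TMM scaling, all 11 wells in one fit, day as the factor). Every adjusted p-value comes from it unless another tool is named, by Benjamini-Hochberg over all 19990 genes of a comparison, with a threshold of 0.05. Filtering by filterByExpr (minimum count 10) left out 0 genes. The edgeR step was tested on simulated counts with a set of genes changed by known folds. The floors cover counting error only, and reads carried no molecular identifiers. Standard errors come from the edgeR fit, which includes the spread between wells. Alternatives used limma 3.58.1 (voom), DESeq2 1.42.0, other scalings, filters and thresholds, and left out each well in turn.

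Members were rows whose symbol starts with HIST1H, HIST2H, HIST3H, HIST4H, H1-, H2AC, H2BC, H3C or H4C; 35 are protein coding and 1, HIST2H2BC, is a pseudogene. Named genes were the 12 with the highest mean CPM, per pair of days the 5 most changed in each direction among those called with at least 0.5 CPM on the higher day, the linker histones, and genes of the lists. Which list genes are named was settled after their values were seen. One gene that the rule takes is not reported here. The members and lists were chosen with earlier results of these data known. Coordinates, transcripts and lengths come from GENCODE v29, which may differ from the authors' annotation, and promoters from RefSeq. Counting over overlapping genes, or without strand, leaves such counts uncertain.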

Additional observations from a re-analysis of the deposited data

Results flagged for a closer look

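In groups of 4 wells, 4 of 92 groups examined held a well apart from the other 3; chance gives about 1 in 20. HIST1H2BK stood at 33.7 CPM in Day 30 replicate 3, against 29.1 to 29.8 CPM in the others. NPAT stood at 21.1 CPM in Day 30 replicate 2, against 24.4 to 24.8 CPM. HIST1H3G stood at 0.361 CPM in Day 113 replicate 4, against 0 CPM. CASP8AP2 stood at 29.6 CPM in Day 113 replicate 2, against 40.1 to 40.6 CPM.

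For 5 of the 36 genes the change from Day 60 to Day 113 was more negative than that from Day 30 to Day 60, by a test of the difference itself (9.34% of all genes passed it, 4.38% in this direction). The second interval was the longer one, and changes were not taken per day. The log2 differences were -1.43 for HIST1H1C (SE 0.31, adjusted p = 0.011), -0.77 for HIST1H2AC (SE 0.19, adjusted p = 0.019), -2.17 for HIST1H2BD (SE 0.27, adjusted p = 0.00039), -4.74 for HIST1H2BG (SE 0.98, adjusted p = 0.0073) and -1.01 for HIST3H2A (SE 0.31, adjusted p = 0.049). Without Day 60 replicate 1, HIST1H1C (adjusted p = 0.0982), HIST1H2AC (0.108), HIST1H2BG (0.0704) and HIST3H2A (0.0878) lost the call. HIST3H2A also lost it without any 1 of 7 other wells and with library totals as the scaling, where its adjusted p was 0.061.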

How the results depend on the processing

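Over the alternatives the members called numbered 0 to 4 (Day 60 against Day 30), 10 to 14 (Day 113 against Day 60), 11 to 18 (Day 113 against Day 30) and 1 to 6 (difference between intervals). At an adjusted p under 0.01 the first count was 0 and the last 2. Leaving out 1 well gave 1 to 4, 11 to 12, 12 to 16 and 1 to 6, and shares of 0.0376% to 0.0389%, 0.0304% to 0.0325% and 0.0146% to 0.0152%. Without HIST2H2BE, an alternative chosen after seeing the data, the mean shares were 0.02095%, 0.01877% and 0.007767%. DESeq2 called 1 member higher from Day 30 to Day 60 and 1 from Day 30 to Day 113.

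The labels do not say that well numbers pair the samples, and no pairing was assumed: deviations correlated at 0.035 to 0.139 over 10 pairs of same-numbered wells (median 0.065) and at -0.108 to 0.122 over 30 other pairs (median -0.028). Of 11 libraries, 9 correlated best with their own number, a hint from the data and not from the design. With the replicate block the 4 counts were 3, 13, 16 and 6. From Day 60 to Day 113, HIST1H2AH (adjusted p = 0.111) and H2AFV (0.0575) did not pass with the block, whereas HIST1H3H (0.0298) and SLBP (0.022) did, as did H2AFX from Day 30 to Day 113 (0.0278). The block turned the log2 fold change of HIST1H2BD to 0.0233, of HIST1H3E to -0.0603 and of HIST1H1E to -0.0762 (Day 60 against Day 30), and the interval difference of HIST1H2BC to -0.7152.

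Of 1360 alternative values for members, 1250 kept direction and side of the threshold, 69 lost the call, 16 gained it and 25 changed sign; of 1100 for other genes, the numbers were 1037, 41, 13 and 9. The changes of sign concern differences that did not pass, and their cause was not tested. For Day 60 against Day 30, leaving out 1 well gave -0.119 to 0.0935 for HIST1H2BD, -0.0534 to 0.2167 for HIST1H1C, -0.3975 to 0.329 for HIST1H3E, -0.0019 to 0.6946 for HIST1H2BG and -0.2651 to 1.3206 for HIST1H1E. HIST1H2BD gave 0.0184 with upper-quartile factors, and in limma-voom HIST1H3E gave -0.0658 and HIST1H1E -0.7016. For Day 113 against Day 60, leaving out 1 well gave -0.6184 to 0.108 for HIST1H3E, -0.0447 to 0.087 for H3F3A and -0.2723 to 0.0141 for HIRA, and upper-quartile factors gave -0.0309 for H3F3A. For Day 113 against Day 30, it gave -0.0534 to 0.1068 for SLBP and -0.0398 to 0.0919 for H3F3A, and upper-quartile factors gave -0.0153 for SLBP. For the interval difference, it gave -0.9473 to 0.5056 for HIST1H3E and -0.4762 to 0.6352 for HIST1H2BC, for which upper-quartile factors gave -0.0672 and limma-voom -0.2199.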

Other observations

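The deposited TPM values of the clustered histone genes did not follow their counts. No value over all genes is given beside this, so it is not shown to be particular to these genes. For the 21 members with a count in every library, the gene length implied by count divided by TPM, relative to the median gene of the library, differed between libraries by 11.6-fold to 293-fold (median 64.3-fold). HIST1H2BD was listed at 367 TPM in Day 60 replicate 1 and at 1.03 TPM in Day 60 replicate 2, where its counts gave 47.6 and 39.4 CPM.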
